A study of Mus musculus with 40 samples.

Results

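Transcripts of 7 genes used to recognise enteric glia and the pacemaker cells of the gut wall (Sox10, S100b, Gfra3, Ednrb, Adcyap1r1, Kit and Ano1) were followed through sorted cells of mouse colon tumors, healthy colon and blood. The genes were listed by symbol, with earlier results of these data known, and were 7 of the 45706 Ensembl genes in the deposited tables. RNA-seq libraries had been made from 10 groups of sorted cells, with 4 libraries in each group. Epithelial cells (CD45-, EpCAM+) and stromal cells (CD45-, EpCAM-) came from tumors and healthy colon, and neutrophils (Ly6G+, Ly6C-low) and monocytes (Ly6G-, Ly6C-high) from tumors and from blood of both kinds of mice. Tumor-bearing mice carried Cdx2CreERT2, a tamoxifen-inducible Cre driven in intestinal epithelium, and Apc fl/fl, and had received tamoxifen at 25 mg/kg at 8 to 10 weeks of age according to the labels. Healthy mice were C57Bl6 with no transgene and no agent. The strain of tumor-bearing mice is labelled C57Bl6/Sv with a number that increases by 1 from sample to sample, so strain, transgene, tamoxifen and tumor cannot be told apart in any comparison of tumor with healthy cells. The titles of 4 blood libraries join 2 animal codes each, and the other titles hold 1 code each.

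Enteric glia are the support cells of the gut's own nervous system, and the transcription factor Sox10 and the calcium-binding protein S100b mark them. Gfra3 is the receptor of artemin, Ednrb a receptor of endothelins that neural crest cells need to colonise the bowel, and Adcyap1r1 the receptor of the neuropeptide PACAP. Interstitial cells of Cajal set the slow electrical rhythm of gut muscle, and they are recognised by the receptor tyrosine kinase Kit and the calcium-activated chloride channel Ano1. Several of these genes are known from other cells too: Kit from mast cells, blood progenitors and secretory cells of the colonic crypt, Ednrb from endothelium and Ano1 from epithelium and smooth muscle.

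In mouse genome mm10 with GENCODE M21, the release used here for positions, Sox10 lies on chromosome 15 from 79154908 to 79165240 on the minus strand. S100b lies on chromosome 10 from 76253853 to 76261159 on the plus strand, where it overlaps Dip2a on the opposite strand. Gfra3 lies on chromosome 18 from 34689898 to 34720387 and Ednrb on chromosome 14 from 103814625 to 103844402, both on the minus strand. Adcyap1r1 lies on chromosome 6 from 55451978 to 55501451 and Kit on chromosome 5 from 75574916 to 75656722, both on the plus strand. Ano1 lies on chromosome 7 from 144588549 to 144751974 on the minus strand and overlaps Gm44930 on the opposite strand. The sources used here do not state whether strand was used in counting, so reads of S100b and Dip2a, or of Ano1 and Gm44930, could not be told apart where they overlap.

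Libraries held 10717873 to 38002939 counts on genes, of which mitochondrial genes took 5.34% to 83.9%. Levels are given in RPKM, reads scaled by the length of the transcript and the depth of the library, as deposited, which can be set side by side between genes. Differences are log2 fold changes of counts from edgeR, and a gene was called where the adjusted p was below 0.05 and the log2 fold change was beyond 1.5 in either direction. The tumor stromal libraries stood apart from one another and from their label. As the median over 9 epithelial markers, they held 100.1%, 54.6%, 20.1% and 12.1% of the mean level in sorted tumor epithelial cells, against 0.0958% to 6.49% in healthy stromal cells. As the median over 8 endothelial markers, tumor stromal libraries 1 and 2 held 1.01% and 0.737% of the healthy stromal mean, and libraries 3 and 4 held 108% and 93.4%. Neutrophil markers reached 18.2% and 10.9% of the tumor neutrophil level in libraries 3 and 4 and were at or under 0.599% in libraries 1 and 2. Mitochondrial genes took 55.4%, 62.9%, 27.4% and 24.8% of counts in tumor stromal libraries 1 to 4 and 15.6% to 24.9% in healthy stromal libraries. The 7 genes and the marker lists are also given without libraries 1 and 2 in the comparison of tumor with healthy stroma, where 5.73% of 20786 genes were then called. The part of the epithelial and neutrophil transcripts in the results was not tested. Fits without mitochondrial genes were run as an alternative, and the part of the mitochondrial share was not tested beyond that.

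**Figure D1:**
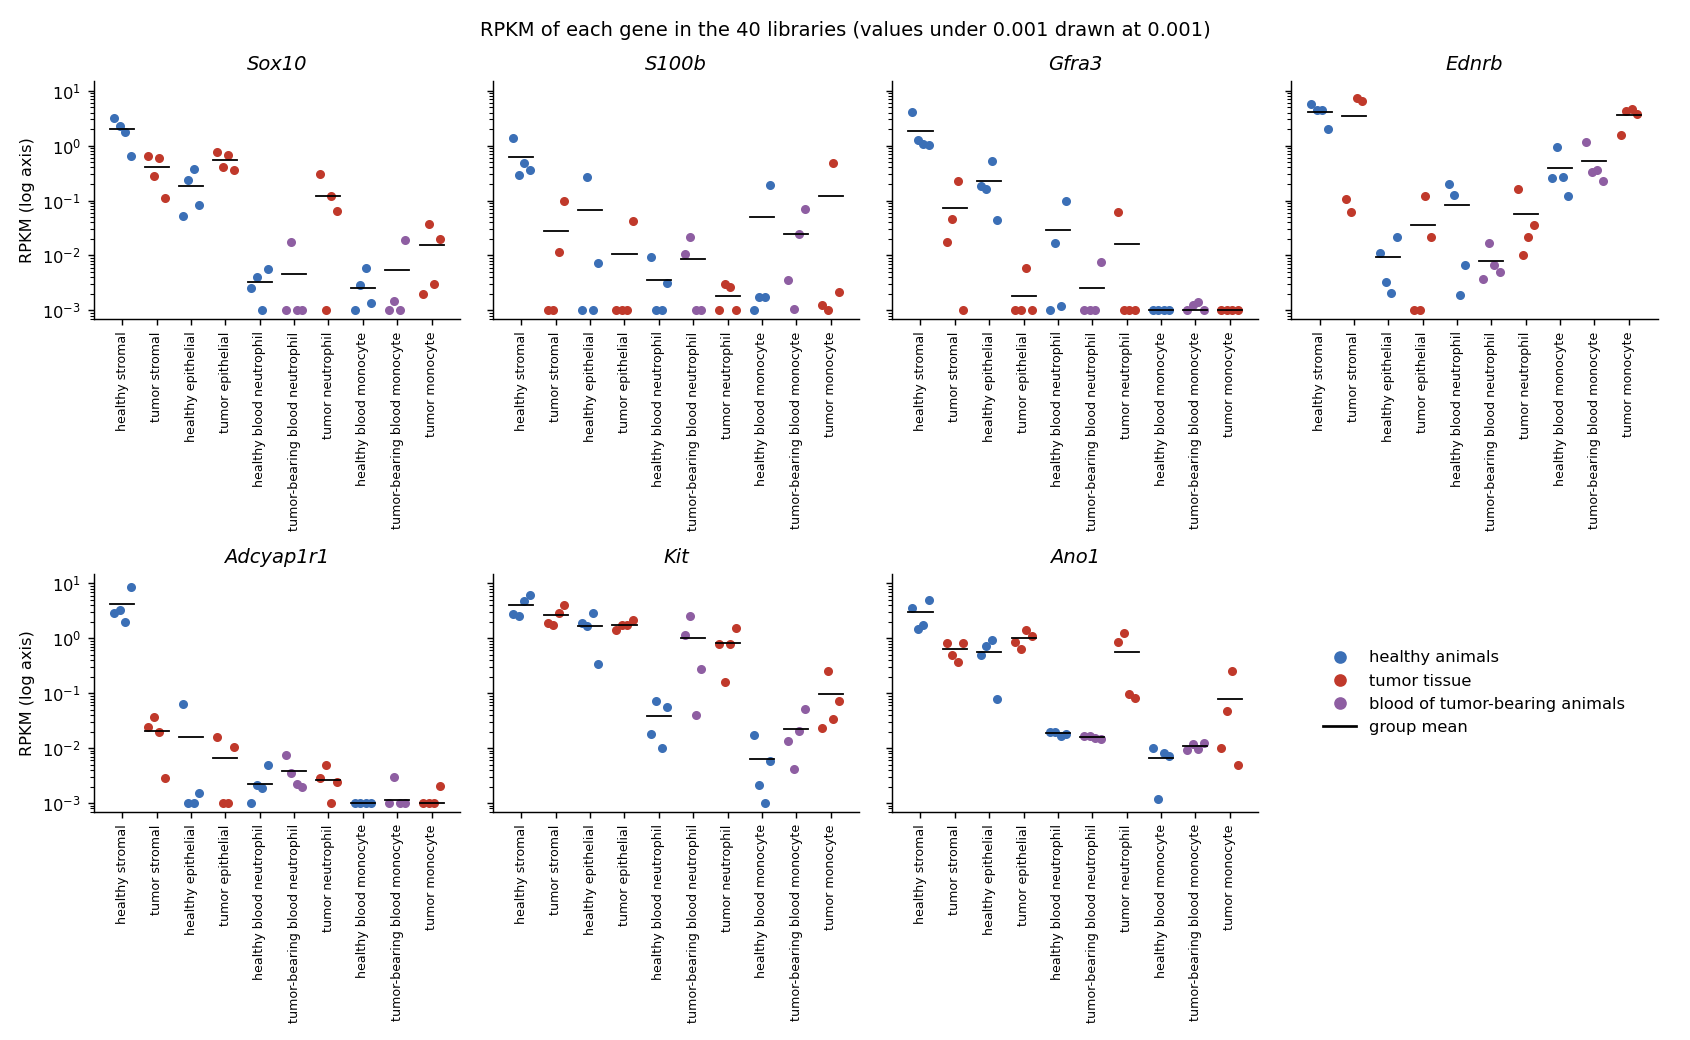
RPKM on a log axis of each of the 7 genes in the 40 libraries, 4 points per group in the order of replicates 1 to 4, with the group mean as a line and values under 0.001 drawn at 0.001. Each gene's highest group mean is that of healthy stromal cells, and Adcyap1r1 is at 1.98 to 8.57 RPKM in those 4 libraries and at most at 0.0624 RPKM in the other libraries.

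In the stroma of tumors, Adcyap1r1, Gfra3 and Ano1 were lower than in healthy stroma, and Kit and Ednrb did not pass the test. These were 3 of 7 genes called, each lower, where 8.40% of the 19081 genes tested were called and 5.01% were called lower. The 7 genes had a median log2 fold change of -1.91, beside 0.03 over the genes tested. In 4 of the 7 (S100b, Gfra3, Adcyap1r1 and Ano1) each tumor library was below each healthy one, which held for 17.3% of the genes tested. In bulk samples, fewer cells of a type and less RNA per cell cannot be told apart.

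Adcyap1r1, the PACAP receptor, showed the largest difference of the 7. It was at 2.84, 3.29, 1.98 and 8.57 RPKM in healthy stromal libraries 1 to 4 and at 0.0238, 0.0370, 0.0201 and 0.00284 RPKM in tumor stromal libraries 1 to 4. The groups were far apart, and the highest healthy value was that of library 4, which also held the most fibroblast transcripts. Among the healthy stromal libraries, Sox10 was lowest in library 4, at 0.640 RPKM. Which cells held Adcyap1r1 was not tested. Tumor counts were 9, 16, 7.99 and 1.05 reads. The means were 4.17 ± 2.99 and 0.0209 ± 0.0141 RPKM (SD, n = 4 each), and the log2 fold change was -7.23 ± 0.85 (SE), with an adjusted p of 0.00473 by edgeR. Without tumor stromal libraries 1 and 2 it was -8.20, with an adjusted p of 0.00841 by edgeR, and it stayed called when any 1 of the 8 libraries was left out.

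Gfra3, the artemin receptor, was at 4.11, 1.28, 1.05 and 1.03 RPKM in healthy stroma and at 0.0176, 0.0459, 0.231 and 0.000788 RPKM in tumor stroma. Healthy library 1 was high and the other healthy libraries were alike, and the highest tumor value still lay below each of them. The log2 fold change was -4.30 ± 1.09, with an adjusted p of 0.0409 by edgeR. This call was lost without tumor stromal libraries 1 and 2, where the log2 fold change was -3.71 and the adjusted p was 0.153 by edgeR. It was also lost without healthy library 1 (adjusted p by edgeR 0.109), healthy library 2 (0.0804), healthy library 3 (0.0658), tumor library 1 (0.0876) or tumor library 2 (0.0961).

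S100b, a calcium-binding protein of glia, was at 1.37, 0.289, 0.477 and 0.364 RPKM in healthy stroma. Tumor stroma held 5.83e-05, 0.000663, 0.0117 and 0.0979 RPKM, or 0.00495, 0.0644, 1.05 and 8.12 estimated reads. The groups did not overlap, and the log2 fold change of -4.16 ± 1.17 had an adjusted p of 0.0582 by edgeR and was not called. Without tumor stromal library 4, where most of the tumor reads were, it was -6.66 with an adjusted p of 0.0151 by edgeR. Leaving out tumor stromal libraries 1 and 2 gave -3.20, with an adjusted p of 0.144 by edgeR.

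Sox10, the transcription factor that specifies glia, was at 3.21, 2.29, 1.78 and 0.640 RPKM in healthy stroma and at 0.660, 0.285, 0.586 and 0.111 RPKM in tumor stroma. The groups overlapped through healthy library 4, which was below tumor library 1. The log2 fold change was -1.91 ± 0.63, with an adjusted p of 0.0931 by edgeR, and without tumor stromal libraries 1 and 2 it was -2.23, with an adjusted p of 0.173.

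Ano1, the chloride channel of pacemaker cells, was at 3.63, 1.48, 1.76 and 5.06 RPKM in healthy stroma and at 0.824, 0.495, 0.370 and 0.839 RPKM in tumor stroma. The groups did not overlap, and healthy libraries 1 and 4 were the high ones. The log2 fold change was -1.87 ± 0.47, with an adjusted p of 0.0405 by edgeR. Without tumor stromal libraries 1 and 2 the call was lost, with an adjusted p of 0.114 by edgeR, although the log2 fold change was no smaller in size. It was also lost without healthy library 1 (adjusted p by edgeR 0.0898) or 4 (0.0709), and without tumor library 1 (0.0705), 2 (0.0961), 3 (0.0826) or 4 (0.0542), while the log2 fold change stayed between -2.12 and -1.45 with any 1 library left out.

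Kit, the receptor of stem cell factor, was at 2.75, 2.53, 4.68 and 6.10 RPKM in healthy stroma and at 1.90, 1.76, 2.94 and 3.99 RPKM in tumor stroma. These ranges overlapped, and the log2 fold change was -0.26 ± 0.36, with an adjusted p of 0.707 by edgeR. It was 0.077 with tumor stromal libraries 1 and 2 left out. Mast cell transcripts, which can accompany Kit, summed over 11 markers to 5.37, 4.48, 22.0 and 1.40 RPKM in the healthy libraries and to 2.23, 1.59, 37.8 and 24.7 RPKM in the tumor libraries. The same sum was 60.3 to 191 RPKM in tumor neutrophils and 28.7 to 55.0 RPKM in blood neutrophils of healthy mice. The sum is thus not particular to mast cells, but a few genes can carry a sum. As the median over the 11 markers, healthy blood neutrophils held 0% to 1.23% and tumor neutrophils 0% to 25.1% of the healthy stromal mean. The part of mast cells or neutrophils in these sums and in the Kit level was not tested. Of the mast cell markers 0 was called higher in tumor stroma, and 2 were without tumor stromal libraries 1 and 2, Hdc at a log2 fold change of 4.44 and the protease Cma1 at 6.18.

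**Figure D2:**
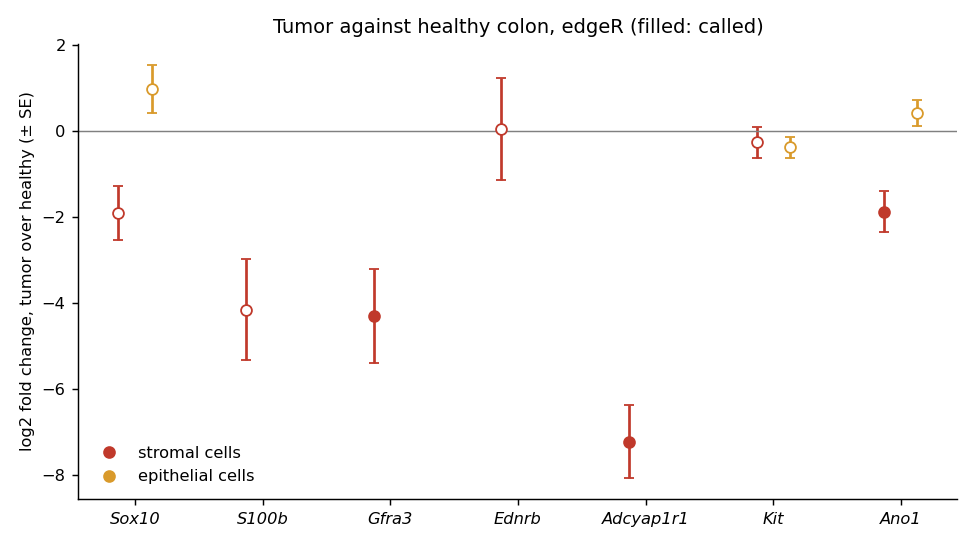
Log2 fold change of tumor over healthy cells from edgeR (y axis, ± SE) for each of the 7 genes in stromal and in epithelial cells, with filled points for genes called. Adcyap1r1 at -7.23, Gfra3 at -4.30 and Ano1 at -1.87 are the filled points, and S100b, Gfra3, Ednrb and Adcyap1r1 have no epithelial point because their counts there did not pass the filter.

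Ednrb separated the tumor stromal libraries into pairs. It was at 5.79, 4.44, 4.38 and 1.97 RPKM in healthy stroma and at 0.108, 0.0627, 7.44 and 6.49 RPKM in tumor stroma. Tumor libraries 3 and 4 were above each healthy library and tumor libraries 1 and 2 below each of them. The log2 fold change of 0.04 ± 1.19 (adjusted p of 0.988 by edgeR) thus averaged a pair of high and a pair of low values, and without libraries 1 and 2 it was 1.03, with an adjusted p of 0.173 by edgeR. The 8 endothelial markers split the same tumor libraries into the same pairs, and their summed level was 4.83, 4.01, 152.5 and 154.2 RPKM in tumor stroma and 147.8, 124.7, 184.5 and 34.7 RPKM in healthy stroma. Healthy library 4 was the lowest of its group for both. Among endothelial genes, Cdh5, the cadherin of endothelial junctions, ranged from 2.97 to 60.8 RPKM over tumor stroma and Pecam1, an endothelial adhesion molecule, from 0.263 to 29.7 RPKM. None of the 8 was called in tumor against healthy stroma, with a median log2 fold change of -0.70, or without tumor stromal libraries 1 and 2, with a median of 0.27. Whether Ednrb transcripts came from endothelium, glia or other cells was not tested.

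**Figure D3:**
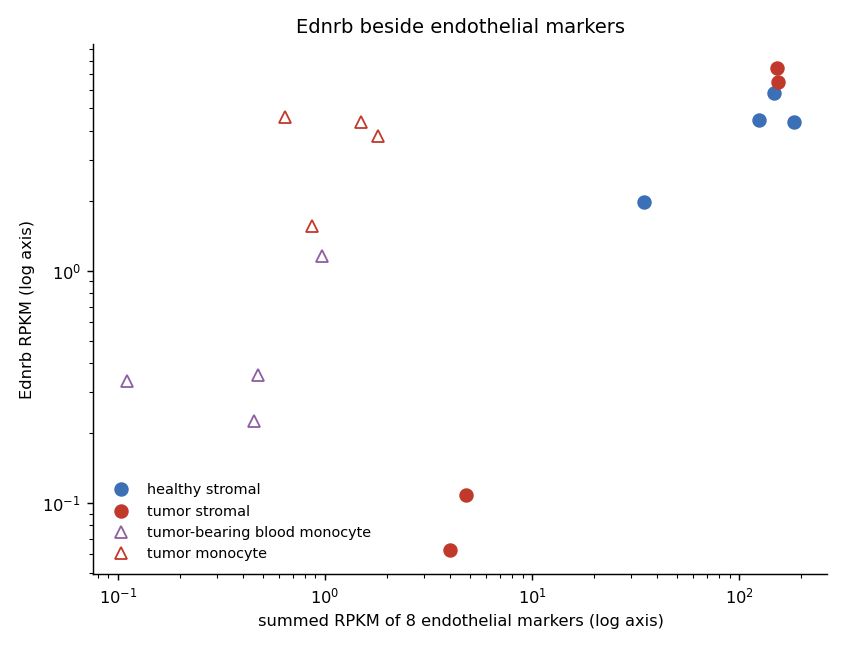
Ednrb RPKM (y axis) against the summed RPKM of 8 endothelial markers (x axis), both on log axes, with 1 point per library for stromal cells (circles) and for monocytes of tumor-bearing mice (triangles). Tumor stromal libraries 1 and 2 lie at 0.108 and 0.0627 RPKM of Ednrb with endothelial sums under 5 RPKM, while tumor monocytes reach 1.56 to 4.58 RPKM of Ednrb with endothelial sums of 0.642 to 1.80 RPKM.

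Most of the further markers listed for glia were also lower in tumor stroma. Of 13 further glial markers, 10 were tested, 5 were called lower and 0 higher, with a median log2 fold change of -2.42. Entpd2, an ectonucleotidase on the surface of enteric glia, fell from a mean of 10.1 to 0.222 RPKM (log2 fold change -5.19 ± 0.67, adjusted p of 0.00506 by edgeR). Cdh19, a glial cadherin, fell from 1.33 to 0.0540 RPKM, the adhesion molecule Ncam1 from 4.89 to 0.263 RPKM and the filament protein Gfap from 0.353 to 0.0242 RPKM. The glial list was at 45.6% to 146% of its healthy mean in healthy stromal libraries and at 6.89% to 21.2% in the tumor libraries, which did not overlap. With tumor stromal libraries 1 and 2 left out, 12 of the 13 were tested and 3 were called lower (Entpd2, Cdh19 and Ncam1), with a median of -2.32, and Gfap had an adjusted p of 0.0726 by edgeR.

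Of 14 markers of enteric neurons, 8 were tested, with a median log2 fold change of -0.82, and without tumor stromal libraries 1 and 2 the median was -0.70. None of 6 further genes of interstitial cells of Cajal was called. Etv1, a transcription factor of these cells, was at 1.41 to 3.86 RPKM in healthy and 0.0294 to 0.557 RPKM in tumor stroma, and its log2 fold change of -3.03 ± 0.90 had an adjusted p of 0.0678 by edgeR. It was called once tumor stromal libraries 1 and 2 were left out (log2 fold change -2.12, adjusted p of 0.0455 by edgeR). Thbs4, a matrix protein, had a log2 fold change of -2.02, the calcium channel gene Cacna1h 0.04 and the kinase gene Prkcq 0.54, with adjusted p-values from 0.0909 to 0.960 by edgeR. Among 18 genes of the ligands, partner receptors and related receptors of the 7, 13 were tested, 2 were called lower and 0 higher. Vipr2, a second receptor that binds PACAP, fell from 2.91 to 0.0636 RPKM (log2 fold change -5.15 ± 0.57, adjusted p of 0.00433 by edgeR). Edn3, the endothelin ligand of Ednrb in the developing bowel, fell from 1.04 to 0.0625 RPKM (log2 fold change -3.73 ± 0.72, adjusted p of 0.0163 by edgeR). Both stayed called without tumor stromal libraries 1 and 2, where Gfra1, the receptor of GDNF, was called lower as well (-2.64, adjusted p of 0.0369 by edgeR).

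Genes of other stromal cells were lower in the same libraries. All 7 fibroblast markers were called lower, with a median log2 fold change of -4.94, among them Dpt, a matrix protein (-7.15), the proteoglycans Dcn (-5.69) and Lum (-5.37) and the collagen gene Col1a2 (-4.94). Of 8 smooth muscle markers, 6 were called lower and 0 higher, with a median of -3.15, among them Lmod1 (-6.37), Myh11 (-3.79), Cnn1 (-3.44) and Synpo2 (-3.42). The fibroblast list was at 1.02% to 3.74% and the smooth muscle list at 3.94% to 12.1% of the healthy mean in the tumor libraries. Of 9 epithelial markers 3 were called higher (Cdh1, Cdh17 and Vil1), and the epithelial list had a median log2 fold change of 4.72. Of 6 neutrophil markers 2 were called higher (Cxcr2 and Csf3r), and of 6 monocyte and macrophage markers 2 (Lyz2 and Csf1r). In the fit that left out tumor stromal libraries 1 and 2, 7 fibroblast and 4 smooth muscle markers were called lower, with medians of -4.61 and -2.86, and 1 epithelial (Cdh17), 5 neutrophil and 1 monocyte and macrophage marker were called higher. The part of these shifts in the values of the 7 genes was not tested.

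**Figure D4:**
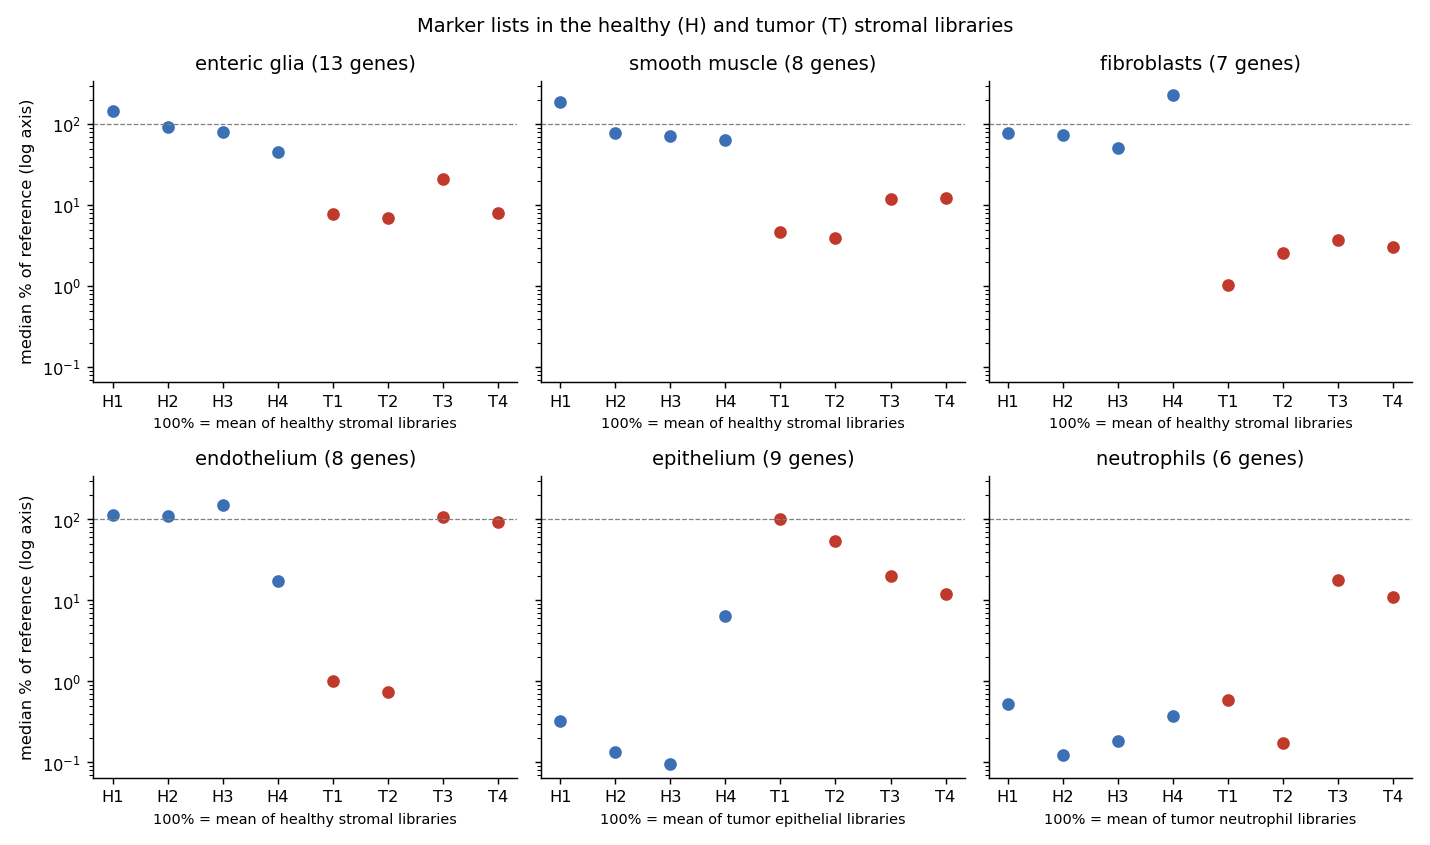
Level of 6 marker lists in healthy (H1 to H4) and tumor (T1 to T4) stromal libraries, as the median over a list's genes of RPKM in percent of the group named under each panel (log axis, dashed line at 100%). Glial, smooth muscle and fibroblast lists are lower in each tumor library than in each healthy one, and the endothelial list is low in T1 and T2 but not in T3 and T4.

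In healthy colon, most of the 7 genes were higher in the stromal than in the epithelial fraction, with Kit and S100b not passing the test. Comparing healthy stroma with healthy epithelium, 5 of 7 genes were called higher in stroma, where 30.9% of 18468 genes were called and 19.4% were called higher. In 6 of 7, each stromal library was above each epithelial one, which held for 37.4% of the genes tested. Ednrb had a log2 difference of 7.32 ± 1.05 and Adcyap1r1 of 7.08 ± 1.31, with adjusted p-values of 0.000687 and 0.00238 by edgeR. Sox10 (2.51 ± 0.63, adjusted p of 0.0111), Gfra3 (2.27 ± 0.60, adjusted p of 0.0143) and Ano1 (1.71 ± 0.43, adjusted p of 0.0114) were called with smaller differences by edgeR. Stromal library 4 and epithelial library 4 of healthy colon share an animal code in their titles. Without healthy stromal library 1, Gfra3 had a log2 difference of 1.53 and an adjusted p of 0.0605, and without healthy stromal library 4, Ano1 had one of 1.23, below the fold threshold. S100b had a log2 difference of 2.54 ± 1.20 and an adjusted p of 0.127 by edgeR. Its epithelial values were 0.000557, 0.264, 0.000944 and 0.00725 RPKM, and without library 2, the high one, its log2 difference was 5.81 with an adjusted p of 0.0112 by edgeR. Kit had a log2 difference of 0.46 ± 0.33 and an adjusted p of 0.298 by edgeR.

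Kit and Ano1 were thus also present in epithelium, and so was Sox10 at a lower level. Kit was at 1.90, 1.70, 2.85 and 0.334 RPKM in healthy and at 1.40, 1.78, 1.72 and 2.19 RPKM in tumor epithelial cells. Healthy epithelial library 4 was low in Kit, in Ano1 at 0.0793 RPKM, in 9 general epithelial markers at 24.4% of the tumor epithelial level against 102% to 157% in the other healthy epithelial libraries, and in 7 markers of deep crypt secretory and goblet cells, whose summed level was 980.6, 819.4, 1269.9 and 66.2 RPKM in the healthy and 24.4 to 130.6 RPKM in the tumor epithelial libraries. Mitochondrial genes took 83.9% of its counts and 48.6% to 67.4% of those of the others. Kit stayed above 1 RPKM in the tumor epithelial libraries, and each of these 7 markers was called lower there. Which epithelial cells held Kit was not tested. Ano1 was at 0.505, 0.716, 0.941 and 0.0793 RPKM in healthy and at 0.853, 0.631, 1.41 and 1.11 RPKM in tumor epithelium, with overlapping ranges. Sox10 was at 0.0531, 0.236, 0.369 and 0.0840 RPKM in healthy and at 0.774, 0.401, 0.663 and 0.356 RPKM in tumor epithelium. Healthy library 3 was just above tumor library 4, and the ranges otherwise did not meet.

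In epithelial cells, 0 of the 3 genes that passed the filter on low counts was called between tumor and healthy colon, against 15.4% of 16085 genes. The log2 fold change was 0.98 ± 0.57 for Sox10, -0.37 ± 0.24 for Kit and 0.43 ± 0.30 for Ano1, with adjusted p-values of 0.255, 0.316 and 0.348 by edgeR. At an unadjusted p under 0.05, 0 of these 3 passed, and DESeq2 and limma-voom also called 0. Gfra3 was not tested there, because its counts were low in most libraries. It was at 0.185, 0.165, 0.529 and 0.0446 RPKM in healthy epithelial cells, from 20.4, 23.8, 52.3 and 8.73 reads, and at 0.00069, 0.000263, 0.00588 and 0.000427 RPKM in tumor epithelial cells, from at most 1.03 reads. Each tumor value was below each healthy one. Among the genes tested, a set without Gfra3, this held for 2.44%, and for 20.6% each tumor value was above each healthy one. These shares are therefore no background for a gene with so few reads. Set against a floor of 3 counts in each tumor library, Gfra3 was at least 11.1-fold lower in tumor epithelium, a bound for counting error only. With no filter on low counts, edgeR gave it an adjusted p of 0.00105.

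The tumor change differed between stroma and epithelium for 2 of the 7 genes by an edgeR interaction test, where 14.1% of 20901 genes were called and 6.81% with a lower stromal change, as for both of these. The stromal change of Ano1 lay 2.31 ± 0.57 log2 units below its epithelial change (log2 difference -2.31, adjusted p of 0.0128), and it stayed called when any 1 of the 16 libraries was left out, and without tumor stromal libraries 1 and 2 together. The difference for Sox10 was -2.91 ± 0.86, with an adjusted p of 0.0315, and it was not called without healthy stromal library 1 (adjusted p of 0.0700) or 2 (0.0589), tumor stromal library 2 (0.0585), healthy epithelial library 2 (0.0606) or tumor epithelial library 1 (0.0723). Without tumor stromal libraries 1 and 2 together its adjusted p was 0.0537. Adcyap1r1 had a difference of -5.37 ± 1.82 and an adjusted p of 0.0596 by edgeR, and it was called, at an adjusted p of 0.00391, once healthy epithelial library 1 was left out, the library with nearly all the reads of this gene in healthy epithelium. The adjusted p was 0.0430 without tumor epithelial library 3.

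Within tumors, stroma was compared with epithelium, where edgeR called 5 of 16985 genes, or 0.0294%. Of the 4 genes of interest that were tested, 0 was called, a share that says nothing about them against so low a background, and 1 passed an unadjusted p under 0.05. Ednrb was at 0.000615, 0.00101, 0.120 and 0.0216 RPKM in tumor epithelium, so that the tumor stromal pair of libraries 3 and 4 lay far above and libraries 1 and 2 near its highest value. Its log2 difference was 6.76 ± 1.82, with an adjusted p of 0.124 by edgeR. Without tumor stromal libraries 1 and 2 the adjusted p was 0.000694 by edgeR, and without library 1 or library 2 alone the adjusted p was 0.0452 or 0.0427. Titles give the same animal codes to tumor stromal libraries 3 and 4 and tumor epithelial libraries 1 and 2. Only these 2 pairs share a code, and 1 residual degree of freedom is left with the code as a block. The blocked fit is therefore counted only among the alternatives, and nothing is concluded from it. Kit, Ano1 and Sox10 had log2 differences of 0.57, -0.62 and -0.47, with adjusted p-values of 0.421, 0.398 and 0.720 by edgeR. They were 0.80, -0.83 and -0.84, with adjusted p-values of 0.0421, 0.151 and 0.404 by edgeR, once tumor stromal libraries 1 and 2 were left out, and none passed the fold threshold.

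Blood cells and tumor-infiltrating myeloid cells held few transcripts of most of the 7. S100b, Gfra3 and Adcyap1r1 exceeded 10 reads in 3 of the 24 neutrophil and monocyte libraries. Ednrb, Kit and Ano1 were found there in particular groups.

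Ednrb was found in monocytes. It was at 0.260, 0.924, 0.268 and 0.122 RPKM in blood monocytes of healthy mice, at 1.15, 0.336, 0.356 and 0.225 RPKM in those of tumor-bearing mice and at 1.56, 4.36, 4.58 and 3.80 RPKM in tumor monocytes. The 4 tumor libraries were above the 8 blood libraries, and the blood groups overlapped. Tumor monocytes differed from blood monocytes of tumor-bearing mice by a log2 fold change of 3.07 ± 0.54, with an adjusted p of 0.00349 by edgeR. This made 1 of 2 tested genes, where 11.7% of 15280 genes were called and 7.76% were called higher, and 10.6% did not overlap and were higher in tumor monocytes. Tumor monocyte libraries 1 to 4 held epithelial markers at 0.695%, 13.6%, 4.32% and 3.59% of the tumor epithelial level, and their endothelial markers were at 0.0234% to 0.508% of the healthy stromal level. Ednrb in tumor epithelium was at most 0.120 RPKM. Which cells held the Ednrb transcripts of the tumor monocyte libraries was not tested. In neutrophils Ednrb did not exceed 0.203 RPKM.

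Ano1 was found in tumor neutrophils at 0.844, 1.26, 0.0981 and 0.0822 RPKM, while blood neutrophils of tumor-bearing mice held 0.0169, 0.0164, 0.0152 and 0.0146 RPKM. Libraries 1 and 2 were high, and each tumor library was above each blood library. The log2 fold change was 5.46 ± 1.13, with an adjusted p of 0.00809 by edgeR, 1 of 2 tested genes where 16.3% of 13674 genes were called and 11.9% were called higher. Libraries that did not overlap and were higher in tumor were found for 13.6% of the genes. Epithelial markers in tumor neutrophil libraries 1 to 4 were at 67.7%, 11.6%, 13.7% and 5.10% of the tumor epithelial level and at most 0.108% in blood neutrophils of tumor-bearing mice, and mean Ano1 in tumor epithelium was 1.00 RPKM. The part of epithelial RNA in the Ano1 value was not tested. Sox10 in the same libraries was at 0.301, 0, 0.119 and 0.0657 RPKM, highest in library 1 like the epithelial markers.

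Kit differed widely among libraries of neutrophils. It was at 1.14, 2.59, 0.0400 and 0.277 RPKM in blood neutrophils of tumor-bearing mice, at 0.0185, 0.0719, 0.0102 and 0.0556 RPKM in those of healthy mice and at 0.784, 0.161, 0.777 and 1.56 RPKM in tumor neutrophils. Libraries 1, 2 and 4 of tumor-bearing mice were above the healthy blood libraries and library 3, whose title joins 2 animal codes, was within their range. The difference between the blood groups was not tested. Summed over 5 markers of blood progenitors, the level was 0.747 to 0.855 RPKM in blood neutrophils of tumor-bearing mice and 0.396 to 1.11 RPKM in those of healthy mice. Tumor against blood neutrophils gave Kit a log2 fold change of -0.31 ± 0.92, with an adjusted p of 0.843 by edgeR. In monocytes Kit was at most 0.250 RPKM, and tumor against blood monocytes gave a log2 fold change of 2.28 ± 0.96 with an adjusted p of 0.137 by edgeR.

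Ordered by group means, healthy stroma came first for each of the 7 genes. It was separated from the next group without overlap for Gfra3 (healthy epithelium next), Adcyap1r1 (tumor stroma next) and Ano1 (tumor epithelium next). For Sox10, S100b, Ednrb and Kit the libraries of the first 2 groups overlapped. Further down the order, each group overlapped with the next for each gene, except that Ano1 in blood neutrophils of tumor-bearing mice lay above Ano1 in their blood monocytes.

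The pattern of a gene over the 10 groups was compared with other genes by Pearson's r of mean log2(RPKM + 0.1), among 13341 genes with at least 1 RPKM in at least 4 libraries and the 7 themselves. These r values describe 10 group means that share libraries, normalization and a high stromal level. Closest to Sox10 was Plekhh2 (r of 0.996), to S100b Htra3 (0.971), to Gfra3 Gstt1 (0.980), to Ednrb Atp2b4 (0.985), to Adcyap1r1 Clec3b (0.999), to Kit Tnfrsf10b (0.974) and to Ano1 Cplx2 (0.994). Next came Crybb3 and Gm27446 for Sox10, Colec12 and Negr1 for S100b, Spon2 and Pcsk5 for Gfra3, Eif4a1 and Fyn for Ednrb, Fibin and Mrgprf for Adcyap1r1, Gm15574 and Yes1 for Kit, and Hoxd9 and Emp2 for Ano1. Among the 7, Sox10 and Ano1 (0.975) and S100b and Adcyap1r1 (0.966) were most alike, and Ednrb and Kit least (0.0701).

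The sequences before the starts of Adcyap1r1 and Ano1, both called lower in tumor stroma, and of Ednrb, which was not, are shown as the 250 bases upstream of the RefSeq start in build GRCm38.p6. Of the 7 genes, 5 had such a window. Capitals mark the letters GGGCGG and CCAAT on either strand, a GC box and a CCAAT box. Of 32851 windows of this length, 32.7% held GGGCGG and 33.8% held CCAAT. The letters ACAAAG and ACAATG, a core that SOX factors can bind, were in 16.5% and 10.7% of the windows and in none of the windows of these 5 genes. The RefSeq start of Adcyap1r1 was that of the GENCODE gene, while those of Ano1 and Ednrb lay 13401 and 701 bases inside it.
Adcyap1r1, chr6:55451728-55451977, plus strand: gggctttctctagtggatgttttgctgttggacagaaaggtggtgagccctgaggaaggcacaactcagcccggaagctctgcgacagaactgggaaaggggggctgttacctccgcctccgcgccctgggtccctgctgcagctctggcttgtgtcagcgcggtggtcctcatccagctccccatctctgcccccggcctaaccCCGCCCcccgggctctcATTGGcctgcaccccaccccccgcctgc
Ano1, chr7:144738574-144738823, minus strand: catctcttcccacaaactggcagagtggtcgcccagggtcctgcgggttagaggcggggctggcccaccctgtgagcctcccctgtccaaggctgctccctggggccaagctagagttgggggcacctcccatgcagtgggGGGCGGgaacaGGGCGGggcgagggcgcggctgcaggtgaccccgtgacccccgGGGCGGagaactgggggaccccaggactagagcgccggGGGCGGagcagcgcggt
Ednrb, chr14:103843702-103843951, minus strand: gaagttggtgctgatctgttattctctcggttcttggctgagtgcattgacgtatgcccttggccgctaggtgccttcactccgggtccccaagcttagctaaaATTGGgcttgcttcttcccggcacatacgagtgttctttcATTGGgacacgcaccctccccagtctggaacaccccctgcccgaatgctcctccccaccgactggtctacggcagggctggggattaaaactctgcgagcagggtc

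The window of Ano1 held 4 matches to GGGCGG and 0 to CCAAT, that of Adcyap1r1 1 of each and that of Ednrb 0 and 2. G and C made up 72.0%, 65.6% and 56.8% of the bases. A match is a description of letters, and the data hold no measurement of binding at these positions.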

How the data were processed

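RNA had been amplified into double-stranded cDNA (NuGEN Ovation RNA-Seq System V2) and sequenced from 40 libraries of sorted mouse cells, 4 in each of 10 groups taken from the sample labels. Reads were aligned by the authors to mm10 (Bowtie 2 is cited), and HTSstation gave the values of each Ensembl gene. The deposited expected counts were fractional estimated counts without normalization, and the authors also deposited RPKM values. Annotation release, multi-mapping and strand are not given in the sources used here. The RPKM scale differed from one based on total counts by factors of 0.642 to 1.55 between libraries. Of 45706 genes, 45143 matched a GENCODE M21 symbol. Counts on genes were 10717873 to 38002939 per library, with a median of 16338416, and floors of 3 counts cover counting error only.

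Expected counts were rounded and fitted per comparison with edgeR 4.0.16 in R 4.3.3 (filterByExpr, TMM, robust quasi-likelihood test, Benjamini-Hochberg adjustment over the genes tested). Calls needed an adjusted p below 0.05 and a log2 fold change beyond 1.5 in either direction. Each comparison used the 8 libraries of its groups and the interaction test used 16. Models were tested on simulated data. Alternatives were DESeq2 1.42.0, limma-voom (limma 3.58.1), no filter on counts, a minimum of 10 counts in each library, RLE size factors, all 40 libraries in 1 fit, limma on log2(RPKM + 1) and log2(RPKM + 0.1), no mitochondrial genes, no fold threshold, blocks by replicate number and by the animal code in the titles, tumor stromal libraries 1 and 2 left out, and each library left out. The marker lists without tumor stromal libraries 1 and 2 were added after seeing the data, as were the genes newly named there. In 60 replicate pairs, squared differences were 21.5 to 856 times those of counting error, so no library was counted as a duplicate. Animal codes in the titles differ within each group, but the labels do not say that libraries came from separate animals, so p-values measure the spread between libraries, which may be technical. Tumor and blood neutrophils share 1 code, as do tumor and blood monocytes.

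The 7 genes, the marker lists, tests and alternatives were chosen with earlier results of these data known, so no list is independent evidence. Genes named from a list were up to 4 with the largest change among those called in tumor against healthy stroma or, with none called, those with the highest mean RPKM in stroma. Genes alike were the 3 with the highest r. The deep crypt secretory sums were added after their values were seen, and results of single genes from some lists are not reported here. The labels give 2 tumor stromal libraries the replicate number 3, and the second is called library 4 here. Promoter windows are from RefSeq, build GRCm38.p6.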

Additional observations from a re-analysis of the deposited data

Results flagged for a closer look

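A library that stood apart from the other 3 of its group was looked for by Dixon's gap test in the 40 sets of a gene and a group with at least 10 counts in the highest library, and 7 were found. For normally distributed values chance gives about 1 in 20. The test used RPKM without a log, and sets were kept by their highest library, so that rate need not hold here. S100b was at 0.264 RPKM in healthy epithelial library 2, from 28.4 reads, with the others at or under 0.00725 RPKM. In healthy blood monocyte library 4 it was at 0.194 RPKM from 17 reads, with the others at or under 0.00178 RPKM, and in tumor monocyte library 3 at 0.485 RPKM from 41 reads, with the others at or under 0.00216 RPKM. Gfra3 was at 4.11 RPKM in healthy stromal library 1, with the others between 1.03 and 1.28 RPKM, and at 0.0989 RPKM in healthy blood neutrophil library 4, from 14.1 reads, with the others at or under 0.0168 RPKM. Ednrb was at 1.15 RPKM in library 1 of blood monocytes of tumor-bearing mice, with the others between 0.225 and 0.356 RPKM. Adcyap1r1 was at 0.0624 RPKM in healthy epithelial library 1, from 22.7 reads, with the others at or under 0.00154 RPKM.

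The change from healthy to tumor tissue differed between stroma and epithelium for Ano1, by -2.31 log2 units with an adjusted p of 0.0128 (edgeR interaction test), and for Sox10, by -2.91 log2 units with an adjusted p of 0.0315 (edgeR interaction test). The stromal change was negative and the epithelial change positive for both genes, and neither epithelial change was called.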

How the results depend on the processing

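Of the 7 genes, the number called in tumor against healthy stroma was 3, and it was 5 with DESeq2 and with limma on log2(RPKM + 0.1), and 1 with at least 10 counts in every library, with limma on log2(RPKM + 1) and without tumor stromal libraries 1 and 2. Adcyap1r1 was called under each of the 11 alternatives that could test it. In tumor against healthy epithelium the number was 0, and 1 (Gfra3) with no filter, with all 40 libraries in 1 fit and without mitochondrial genes. In healthy stroma against epithelium it was 5, and 1 with at least 10 counts in every library, 2 with limma on log2(RPKM + 1) 3 with all 40 libraries and 6 with limma-voom and limma on log2(RPKM + 0.1). In tumor stroma against epithelium it was 0, and 1 with DESeq2, with the animal block (1 residual degree of freedom) and without tumor stromal libraries 1 and 2, and 2 with all 40 libraries, where all genes called numbered 1246, 2232, 4471 and 1739 in place of 5. In neutrophils it was 1, and 0 with at least 10 counts in every library and with limma on log2(RPKM + 1), and 2 with all 40 libraries. In monocytes it was 1 throughout, though with all 40 libraries that gene was Ano1, and Ednrb had an adjusted p of 0.0672. In the interaction it was 2, and 4 with limma on log2(RPKM + 0.1) and 1 with at least 10 counts in every library, all 40 libraries or tumor stromal libraries 1 and 2 left out. At least 10 counts in every library leaves out genes that are absent from 1 group by construction, and the cause of the other shifts was not tested. Leaving out 1 library gave 1 to 3 in tumor against healthy stroma, 0 to 1 in epithelium, 4 to 6 in healthy stroma against epithelium, 0 to 1 in tumor stroma against epithelium, 1 in neutrophils and in monocytes, and 1 to 3 in the interaction.

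Some signs turned. Ednrb, at 0.04 in tumor against healthy stroma was -1.91 with limma-voom, -0.75 with limma on log2(RPKM + 1), -1.80 with log2(RPKM + 0.1) and -0.57 to 0.46 with 1 library left out, where Kit was 0.077 without tumor stromal libraries 1 and 2 and -0.52 to 0.051 with 1 left out. In epithelium Kit was 0.13 and 0.34 on the RPKM scales, and in neutrophils 0.49 with limma-voom, 0.23 with log2(RPKM + 0.1) and -0.83 to 0.66 with 1 library left out. In the interaction Gfra3, at 2.73 ± 1.48 (adjusted p of 0.246 by edgeR), was -1.02 and -1.92 and Kit -0.57 and -0.91 on the RPKM scales, Ednrb 0.086 with DESeq2 and 0.31 without tumor stromal libraries 1 and 2, and with 1 library left out S100b, at -1.39, was -4.67 to 1.99, Ednrb -2.52 to 1.18 and Kit -0.15 to 0.41. The other values of single genes numbered 577 on the same side of the call, 40 that lost it and 23 that gained it.

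Replicate numbers did not pair the libraries: deviations of same-numbered libraries from their group means correlated at -0.143 to 0.195. With the replicate block, 1, 0, 3, 1, 1, 1 and 1 of the 7 genes were called in the comparisons in the order above, Ednrb in stroma was -3.80 and Kit in neutrophils 0.66. Reads of S100b, Gfra3 and Adcyap1r1 were few in tumor cells, where most libraries held under 10 reads of each.

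Over all genes, calls moved by more than 1.5 times as follows. With limma on log2(RPKM + 1) they numbered 555 in place of 1602 in stroma, 575 in place of 2476 in epithelium, 2119 in place of 5702 in healthy stroma against epithelium, 680 in place of 2229 in neutrophils, 520 in place of 1781 in monocytes and 1164 in place of 2938 in the interaction. With at least 10 counts in every library they were 947 in stroma, 1246 in epithelium, 2245 in healthy stroma against epithelium, 1270 in neutrophils and 1219 in the interaction. DESeq2 called 2707 in stroma, and all 40 libraries in 1 fit gave 5995 in neutrophils and 2803 in monocytes. The replicate block gave 1407 in neutrophils. Tumor stroma against epithelium, with 5, gave 0 to 840 with 1 library left out, 840 without tumor stromal library 1 and 799 without library 2. In stroma, 876 were called without healthy library 1, 827 without healthy library 2 and 1053 without tumor library 2, and in neutrophils 3624 without tumor library 2.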

Other observations

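Lists not yet described gave these values in tumor against healthy stroma by edgeR. Of 11 mast cell markers 6 were tested and 0 was called, with a median log2 fold change of 0.92, and Hdc, the enzyme that makes histamine, was at 0.221 to 1.67 RPKM in healthy and 0.873 to 18.9 RPKM in tumor stroma, where its log2 fold change of 3.53 had an adjusted p of 0.0695. The mast cell median was 2.76 without tumor stromal libraries 1 and 2, where Hdc was called, with an adjusted p of 0.0111. The summed mast cell list was higher in tumor neutrophils, at 60.3 to 191 RPKM, than in any stromal library. Its median there was at most 25.1% of the healthy stromal mean, so the sum does not stand for most of the list. The part of neutrophils in these stromal values was not tested. Gata2, a transcription factor of mast cells and progenitors, had a log2 fold change of -0.89 over all 8 libraries, and the mast cell proteases Mcpt2 and Mcpt1 had 1.98 and -0.11. Of 5 blood progenitor markers 1 was called, the transcription factor Myb, higher in tumor stroma at 1.26 against 0.160 RPKM (log2 fold change 3.34 ± 0.56, adjusted p of 0.0101). Against tumor epithelium, without tumor stromal libraries 1 and 2, Myb had a log2 difference of -0.95 (adjusted p of 0.0268 by edgeR). That is within the fold threshold, and the part of epithelial RNA in its stromal level was not tested. Flt3, a receptor gene of progenitors, was called higher as well once tumor stromal libraries 1 and 2 were left out, at 3.36. Of 5 melanocyte markers, cells that also use Sox10, Ednrb and Kit, 2 were tested and 0 was called, Mitf at -1.48 and Pmel at 0.19, and Mlana and Dct averaged at most 0.138 RPKM in either group. Of 7 markers of deep crypt secretory and goblet cells 6 were tested and 0 was called, with Reg4 at 4.05, Muc2 at 1.20, Agr2 at 0.69 and Tff3 at 1.69. No marker of the melanocyte or the deep crypt and goblet lists was called without tumor stromal libraries 1 and 2 either.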
